A study of Mus musculus with 12 samples.

Results

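The SREBP transcription factors and the proteins that hold, escort and cleave them are encoded by 7 genes: Srebf1, Srebf2, Scap, Insig1, Insig2, Mbtps1 and Mbtps2. They were taken by name from a table of 55421 genes, and all 7 were in it and passed the filter on low counts. The data are polyA RNA-seq read counts from the prefrontal cortex of male wild-type C57BL/6 mice aged 10 to 12 weeks. All mice had been through auditory fear conditioning, in which a tone is paired with a foot shock, and tissue was collected 2 h after training, as the sample titles give it. There were 4 groups of 3 libraries. PL Dex was prelimbic cortex after an intraperitoneal injection of dexmedetomidine, a sedative agonist of alpha2 adrenergic receptors, at 40 µg per kg. PL saline was prelimbic cortex after an equal volume of normal saline. IL Dex and IL saline were infralimbic cortex after the same injections. The extraction protocol names prelimbic tissue for every sample, whereas the titles of 6 samples name infralimbic cortex, and the titles were followed. Every mouse was conditioned, so no group shows the level without training. Whether each library stands for its own mouse is not said in the labels, so p-values measure only the spread between these samples, which may be technical.

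SREBPs are made as membrane proteins of the endoplasmic reticulum, where they bind the escort protein SCAP. When sterols are plentiful, SCAP is held in the membrane by INSIG proteins. When sterols are scarce, SCAP carries SREBP in COPII vesicles to the Golgi, where the site-1 protease (encoded by Mbtps1) and then the site-2 protease (encoded by Mbtps2) release the part that enters the nucleus. SREBP1 acts mainly on genes of fatty acid synthesis and SREBP2 mainly on genes of cholesterol synthesis and uptake. In the adult brain, cholesterol is made locally, with astrocytes as a main source. Srebf1 stands in the title of the series, which places it in astrocytes of the prelimbic cortex. Read counts per gene cannot separate the 1a and 1c transcripts of Srebf1, and they say nothing of the cleavage of the proteins.

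Promoter windows of all 7 genes were in the RefSeq table (build GRCm38.p6), 12 windows in all because some genes have several starts. The 250 bases before each start were searched on both strands for exact matches. The patterns were TCACNCCAC, a consensus of the sterol regulatory element, the E-box CACGTG and the NF-Y box CCAAT. Their matches share no letters in these windows. TCACNCCAC was in no window of the 7 genes, and 1.05% of 32817 windows of the same length held it. Forms of the element with other letters were not searched for, so these windows may still hold such an element. CACGTG was in 2 of the 12 windows, of Insig1 and of Scap, and 6.02% of all windows held it. CCAAT was in 5 of the 12 windows, of Srebf1, Srebf2, Insig1 and Insig2, and 33.8% of all windows held it. Of the windows that carry these boxes, those of both transcription factor genes and of Insig1, which is itself a known SREBP target, are shown. The Insig2 window with CCAAT and the Scap window with CACGTG were left out by this choice of genes. The CACGTG of Scap lies in bases that an exon from another of its starts covers. The windows shown are written 5′ to 3′ on the strand of the gene, up to the first annotated exon base. Capitals mark CCAAT, its reverse complement ATTGG and CACGTG. The first Srebf1 window is chr11:60222582-60222831 on the minus strand, the second shown is chr11:60210472-60210721 on the minus strand at another start, the Srebf2 window is chr15:82147019-82147180 on the plus strand and the Insig1 window is chr5:28071162-28071362 on the plus strand.
Srebf1, outermost start: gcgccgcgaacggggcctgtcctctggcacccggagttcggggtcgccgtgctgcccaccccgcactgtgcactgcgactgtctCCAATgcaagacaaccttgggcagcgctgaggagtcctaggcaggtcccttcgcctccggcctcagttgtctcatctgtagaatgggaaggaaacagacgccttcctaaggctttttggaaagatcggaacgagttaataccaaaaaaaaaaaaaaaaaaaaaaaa
Srebf1, innermost start: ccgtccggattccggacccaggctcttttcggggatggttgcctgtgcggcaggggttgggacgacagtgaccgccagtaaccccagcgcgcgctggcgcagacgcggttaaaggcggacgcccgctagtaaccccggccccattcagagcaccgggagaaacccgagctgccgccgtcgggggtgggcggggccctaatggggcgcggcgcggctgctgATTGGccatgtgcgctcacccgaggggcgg
Srebf2: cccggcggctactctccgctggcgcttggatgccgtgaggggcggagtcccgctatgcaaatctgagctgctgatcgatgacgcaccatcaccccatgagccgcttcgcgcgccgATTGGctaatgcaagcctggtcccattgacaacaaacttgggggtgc
Insig1: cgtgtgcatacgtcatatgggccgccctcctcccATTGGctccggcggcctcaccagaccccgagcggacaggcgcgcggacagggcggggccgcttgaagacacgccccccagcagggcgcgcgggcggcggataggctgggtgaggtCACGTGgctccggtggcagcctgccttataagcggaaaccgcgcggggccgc
A match of letters describes these windows and was not tested as a binding site.

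The table places Srebf1 on GRCm38 chromosome 11 at 60199089 to 60222581, on the minus strand, with 5634 bases of exon. Its last exon shares 109 bases with Rai1 on the other strand. Srebf2 lies on chromosome 15 at 82147181 to 82205379, on the plus strand, and carries the microRNA gene Mir33 in an intron, which had 0 to 3 counts in a library. Scap lies on chromosome 9 at 110333288 to 110384950, on the plus strand, and 13.2% of its exon length overlaps the gene 5830462I19Rik on the other strand. Insig1 lies on chromosome 5 at 28071363 to 28078662 and Insig2 on chromosome 1 at 121304353 to 121332589. Mbtps1 lies on chromosome 8 at 119508156 to 119558735 and Mbtps2 on chromosome X at 157535371 to 157598715. Within Mbtps2, the retrogene Yy2 lies on the same strand and takes up 28.4% of the exon length. Yy2 had 0 counts in all 12 libraries. All 2867 bases of Yy2 lie in exons of Mbtps2, so the counting rule given next fixed this count, which says nothing of Yy2 expression. Reads that hit the exons of 2 genes were not counted, so the shared bases were left out wherever levels were set per length.

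Per kilobase of unshared exon, Srebf2 was the most abundant of the 7 transcripts, with a mean of 32.7 RPKM over the 12 libraries. Insig1 followed with 21.7 RPKM. Insig2 with 10.9 RPKM, Scap with 9.69 RPKM and Mbtps1 with 9.59 RPKM lay close together. Srebf1 with 6.47 RPKM and Mbtps2 with 5.93 RPKM were the least abundant. The range over libraries was widest for Srebf1, whose highest library had 2.87 times the CPM of its lowest, and it was 1.45 to 1.69 times for the other 6 genes. Each value rests on 122 to 4176 reads of the gene in a library. Total counts were 6853832 to 7912150 in PL Dex, 6867249 to 8847876 in PL saline, 5419187 to 10874464 in IL Dex and 10603069 to 16530596 in IL saline, so levels in IL saline rest on the most reads.

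**Figure D1:**
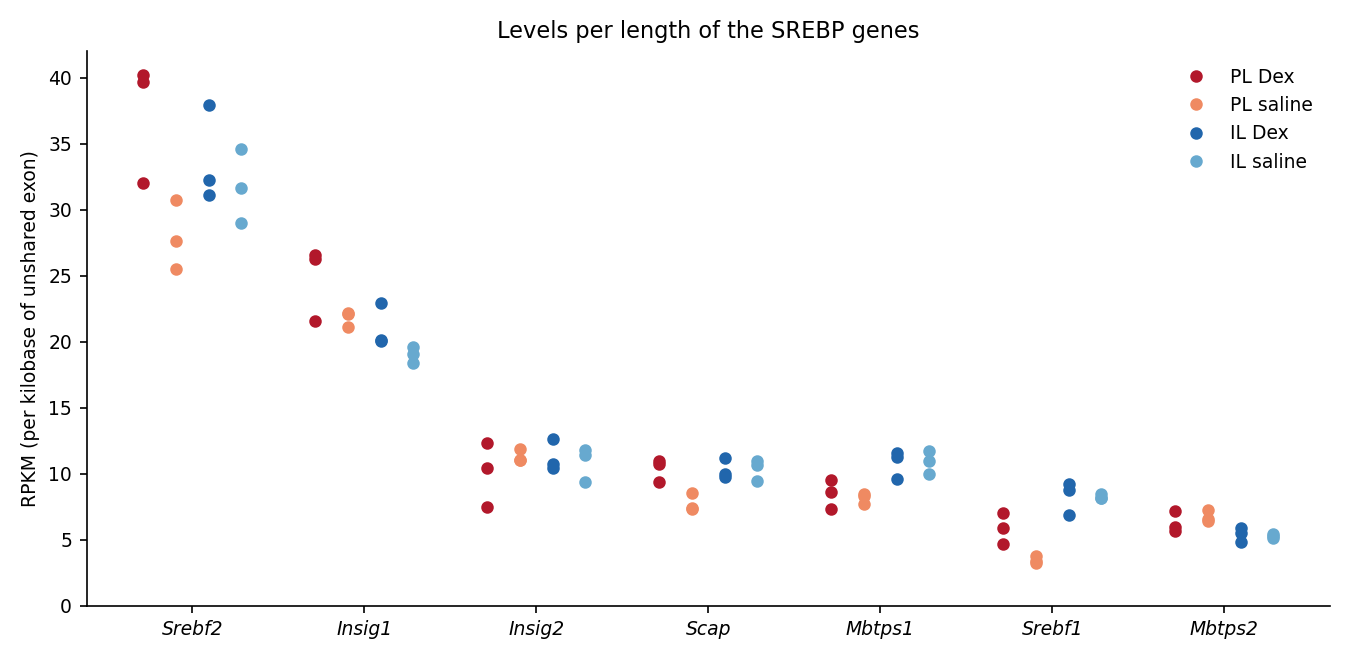
Levels per length of the 7 SREBP genes: the y axis is RPKM on exon bases shared with no other gene, and each point is a library, coloured by group with PL Dex first. Srebf2 lay highest in every library, Insig1 second, and the other 5 genes lay below both.

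The comparison of Dex with saline in PL asked whether the drug changed these transcripts in the prelimbic cortex. The time of the injection relative to training is not given in the labels used here. None of the 7 genes passed the threshold of an adjusted p of 0.05 in edgeR's quasi-likelihood test over 20015 genes, and 0.02% of all genes tested did (4 genes, all lower after Dex). At an unadjusted p under 0.05 there were 3 of the 7 and 2784 of all genes, and DESeq2 called 1 of the 7 and 123 of all genes. The 3 members with the largest differences were Srebf1, Srebf2 and Scap, and in each of them the Dex libraries lay above all saline libraries. That pattern, higher without overlap, was seen in 7.57% of all genes tested. The other 4 genes had overlapping groups.

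Srebf1 encodes SREBP1, the factor of fatty acid synthesis. It had 38.5, 32.1 and 25.3 CPM in PL Dex libraries 1, 2 and 3, against 18.5, 17.6 and 20.5 CPM in PL saline libraries 1, 2 and 3. The Dex libraries were spread widely and the saline libraries narrowly, and the lowest Dex library still lay above the highest saline library. Srebf1 averaged 32.0 ± 6.58 CPM in PL Dex and 18.9 ± 1.51 CPM in PL saline (SD, n = 3 each). This is a log2 fold change of 0.76 with an SE of 0.155 and a 95% interval of 0.44 to 1.08, which ranked 16 of all genes by p but missed the threshold (edgeR unadjusted p = 8.7e-05, edgeR adjusted p = 0.108). By other processing it passed: the DESeq2 adjusted p was 0.00502, and without the filter on low counts the edgeR adjusted p was 0.00182. Without PL Dex library 3, the one nearest to saline, the log2 fold change was 0.91 (edgeR adjusted p = 0.00481), in a fit in which 7.07% of all genes passed. That was the highest value over the fits that left out 1 library, and the lowest was 0.60. Of 19 alternatives in all, Srebf1 passed in these 3.

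Srebf2 encodes SREBP2, the factor of cholesterol synthesis. It had 285, 289 and 229.9 CPM in the PL Dex libraries, against 198, 184 and 221 CPM in the PL saline libraries. Dex libraries 1 and 2 stood well above saline, and Dex library 3 lay close to saline library 3. Srebf2 averaged 268 ± 33.0 CPM in PL Dex and 201 ± 18.9 CPM in PL saline (SD, n = 3 each), a log2 fold change of 0.41 (SE 0.114, edgeR adjusted p = 0.191). Without the filter on low counts the edgeR adjusted p was 0.0474. Without PL Dex library 3 the log2 fold change was 0.52 (edgeR adjusted p = 0.00883). Over the fits that left out 1 library it was 0.35 to 0.52, and Srebf2 passed in 2 of 19 alternatives.

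Scap encodes the sterol sensor that escorts both SREBPs. It had 70.6, 69.5 and 60.3 CPM in the PL Dex libraries, against 47.5, 48.0 and 55.1 CPM in the PL saline libraries. As with Srebf2, libraries 1 and 2 of each group stood far apart and libraries 3 close together. Scap averaged 66.8 ± 5.65 CPM in PL Dex and 50.2 ± 4.22 CPM in PL saline (SD, n = 3 each), a log2 fold change of 0.41 (SE 0.115, edgeR adjusted p = 0.194). Without PL Dex library 3 it was 0.49 (edgeR adjusted p = 0.0152). Over the fits that left out 1 library it was 0.37 to 0.49, and Scap passed in 1 of 19 alternatives.

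The INSIG genes encode the anchors that retain SCAP, and of the pair Insig1 is the sterol-responsive one. Insig1 had 81.4, 66.8 and 82.3 CPM in the PL Dex libraries, against 68.3, 68.6 and 65.3 CPM in the PL saline libraries. Dex libraries 1 and 3 were high and Dex library 2 lay among the saline libraries, so the groups overlapped (log2 fold change 0.19, SE 0.109, edgeR adjusted p = 0.444). Insig2 had 36.3, 26.0 and 42.7 CPM in the PL Dex libraries, against 38.4, 41.1 and 38.4 CPM in the PL saline libraries. Dex library 2 had the lowest Insig2 level of all 12 libraries, and the log2 fold change was -0.17 (SE 0.155, edgeR adjusted p = 0.639).

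The proteases differed little. Mbtps1, the site-1 protease, averaged 89.6 ± 11.4 CPM in PL Dex and 86.0 ± 4.42 CPM in PL saline (SD, n = 3 each), with a log2 fold change of 0.06 (95% interval -0.18 to 0.30). Mbtps2, the site-2 protease, averaged 45.3 ± 5.68 CPM in PL Dex and 48.8 ± 3.15 CPM in PL saline (SD, n = 3 each), with a log2 fold change of -0.11 (95% interval -0.36 to 0.15). Both groups overlapped in both genes.

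**Figure D2:**
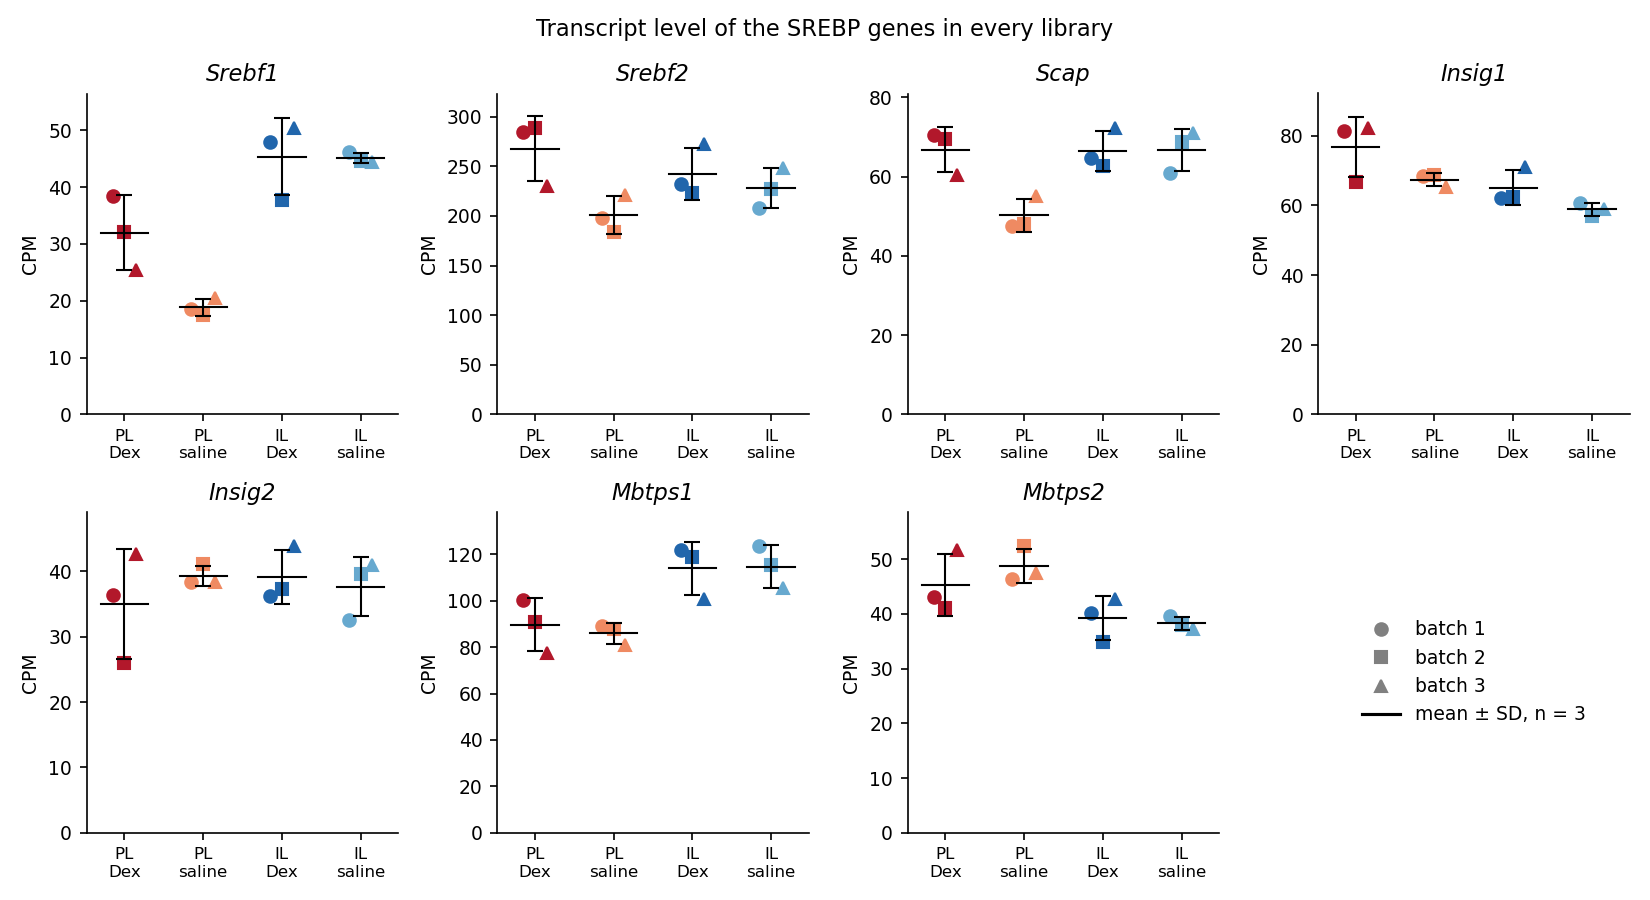
Transcript level of the 7 SREBP genes in every library: the y axis is CPM from 0, each symbol is a library with its shape giving the batch number, and bars are the mean ± SD of 3 libraries. In Srebf1, Srebf2 and Scap the 3 PL Dex libraries lie above the 3 PL saline libraries, with the batch 3 libraries nearest to each other, and in IL the Dex and saline libraries mix in every gene but Insig1.

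The base composition of the transcripts moved with this comparison. The GC slope of a library, the change of log2 level per 10% of transcript GC content relative to the mean of all libraries, was 0.118, 0.0976 and -0.0665 in the PL Dex libraries and -0.249, -0.304 and -0.0724 in the PL saline libraries. Libraries 1 and 2 thus differed strongly between Dex and saline, and libraries 3 hardly at all. Across all genes the median log2 fold change of Dex in PL was 0.25 for transcripts over 55% GC and -0.20 for transcripts under 45% GC. Scap (59.1% GC), Srebf1 (58.4%) and Srebf2 (57.9%) are in the higher class, Mbtps1 (50.2%), Insig1 (48.2%) and Insig2 (46.0%) lie between, and Mbtps2 (40.0%) is in the lower class.

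With the GC trend of each library taken out, the log2 fold change of Dex in PL was 0.50 for Srebf1 (SE 0.129, edgeR adjusted p = 0.579). It was 0.17 for Srebf2 (SE 0.0772, edgeR adjusted p = 0.826) and 0.15 for Scap (SE 0.0901, edgeR adjusted p = 0.872). More of the Srebf1 difference thus remained than of the other two. The value for Insig1, 0.20, hardly moved, and the value for Mbtps2 turned to 0.14. With PL Dex library 3 left out as well, an alternative chosen after seeing the data, the GC-corrected value of Srebf1 was 0.59 (edgeR adjusted p = 0.0554).

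The labels give each sample a batch number that equals its sample number, and same-numbered libraries were compared within a batch. For Srebf1 the log2 difference of Dex from saline in PL was 1.05 in batch 1, 0.86 in batch 2 and 0.30 in batch 3. For Srebf2 it was 0.52, 0.65 and 0.06, and for Scap 0.57, 0.53 and 0.13, in the same order. In these 3 genes every PL Dex library lay above every PL saline library, so the direction within each batch was fixed and is no further support. The difference was smallest in batch 3, the pair with nearly equal GC slopes. Insig1 was higher after Dex in batches 1 and 3, by 0.25 and 0.33, and lay at -0.04 in batch 2.

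**Figure D3:**
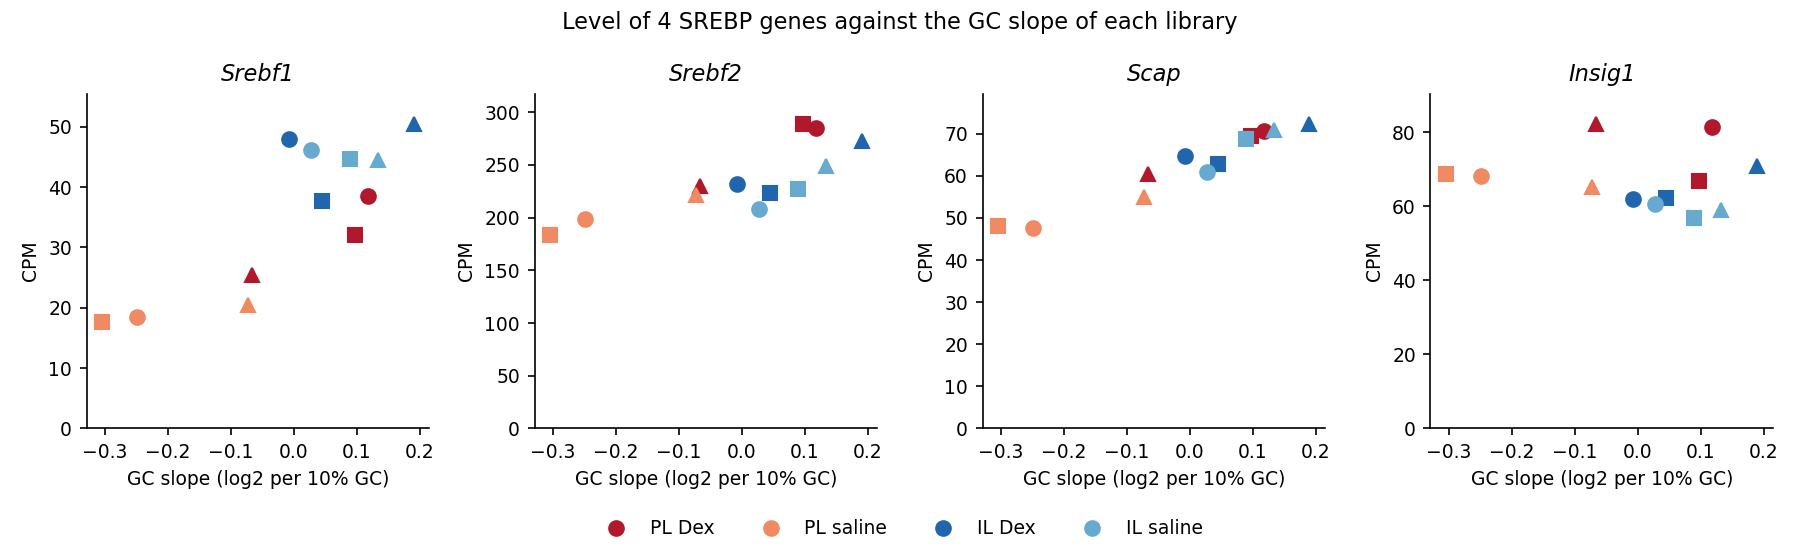
Level of Srebf1, Srebf2, Scap and Insig1 (y axis, CPM from 0) against the GC slope of each library (x axis, log2 per 10% GC), with a symbol per library coloured by group and shaped by batch as in the plot of levels. The Srebf2 and Scap libraries lie along a rising band. PL saline libraries 1 and 2 are at its low end, at slopes of -0.249 and -0.304. Srebf1 rises with the slope as well. Its PL Dex libraries 1 and 2 lie below the IL libraries of nearest slope, though PL Dex library 1 lies just above IL Dex library 2. No IL library has a slope as low as those of PL saline, so PL saline cannot be compared with IL at a similar slope. For Insig1 no rise is seen over the 12 libraries. The Pearson correlation of log2 CPM with the slope over these libraries was 0.864 for Srebf1, 0.828 for Srebf2, 0.972 for Scap and -0.142 for Insig1. Within the 6 PL libraries it was 0.946, 0.985, 0.979 and 0.353, in the same order.

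In IL the same comparison gave small values. None of the 7 genes passed in edgeR, and 0% of all genes tested did. At an unadjusted p under 0.05 there were 0 of the 7 and 213 of all genes, and DESeq2 called 0 of the 7. Srebf1 had 47.9, 37.7 and 50.5 CPM in the IL Dex libraries, against 46.1, 44.6 and 44.5 CPM in the IL saline libraries. IL Dex library 2 was low and the other two high, around a narrow saline group, and the log2 fold change was 0.01 (95% interval -0.29 to 0.31). Srebf2 averaged 243 ± 26.1 CPM in IL Dex and 228 ± 20.1 CPM in IL saline (SD, n = 3 each), with a log2 fold change of 0.09 (95% interval -0.14 to 0.33). Insig1 was the 1 member whose groups did not overlap, with 62.0, 62.3 and 70.9 CPM in the IL Dex libraries, against 60.7, 56.9 and 59.0 CPM in the IL saline libraries. Its log2 fold change was 0.15 (SE 0.108, edgeR adjusted p = 1.00), and 3.8% of all genes tested were higher after Dex in IL without overlap. Scap, Insig2, Mbtps1 and Mbtps2 had log2 fold changes of -0.01 to 0.06.

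The difference between the Dex effects in PL and in IL was tested as an interaction. None of the 7 genes passed in edgeR, and 0% of all genes tested did. At an unadjusted p under 0.05 there were 2 of the 7 and 1347 of all genes, and DESeq2 called 0 of the 7. For Srebf1 the log2 difference of the effects was 0.75 (SE 0.211, edgeR unadjusted p = 0.00201, edgeR adjusted p = 0.716). For Scap it was 0.41 (SE 0.160, edgeR adjusted p = 0.716) and for Srebf2 0.32 (SE 0.160, edgeR adjusted p = 0.716). Without PL Dex library 3 the Srebf1 value was 0.90 (edgeR adjusted p = 0.0416), and after GC correction of all libraries it was 0.48 (edgeR adjusted p = 1.00). Over the fits that left out 1 library the Srebf1 value was 0.59 to 0.90, and it passed in 1 of 19 alternatives.

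The regions themselves differed more. The comparison of PL with IL after saline and that of Dex with saline in PL share the PL saline libraries, so their values are not independent. The comparison of PL with IL after Dex likewise shares the PL Dex libraries. After saline, 4 of the 7 genes passed the threshold between PL and IL, and 18.7% of all genes tested did. Srebf1, Scap and Mbtps1 were lower in PL, as were 8.7% of all genes, and Mbtps2 was higher in PL, as were 9.97%. The groups of these 4 genes and of Insig1 did not overlap. Without overlap, 20.2% of all genes tested were lower in PL and 20.1% were higher. Srebf1 showed the largest difference of the 7: its PL saline libraries (18.5, 17.6 and 20.5 CPM) lay at less than 0.5 times the level of its IL saline libraries (46.1, 44.6 and 44.5 CPM). The log2 fold change was -1.26 (SE 0.151, edgeR adjusted p = 2.7e-05), and it was -1.31, -1.33 and -1.11 within batches 1, 2 and 3. After GC correction it was -0.94 (edgeR adjusted p = 6.0e-05), and the call was kept whichever of the 12 libraries was left out. In bulk tissue, fewer cells that express a gene and less RNA per cell cannot be told apart.

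Mbtps1 had 89.1, 87.8 and 80.9 CPM in the PL saline libraries, against 123, 116 and 105 CPM in the IL saline libraries. The groups did not overlap, and the log2 fold change was -0.42 (SE 0.113, edgeR adjusted p = 0.0147), or -0.35 after GC correction (edgeR adjusted p = 0.0294). The call was lost when PL saline library 3, IL saline library 1 or IL saline library 2 was left out, with log2 fold changes of -0.38, -0.36 and -0.41. Scap had 47.5, 48.0 and 55.1 CPM in the PL saline libraries, against 60.8, 68.7 and 70.9 CPM in the IL saline libraries. It was lower in PL by the counts as deposited (log2 fold change -0.41, SE 0.113, edgeR adjusted p = 0.0152), and its value was -0.07 after GC correction (edgeR adjusted p = 0.641). The call was also lost without PL saline library 1 or 2 or IL saline library 2 or 3, with log2 fold changes of -0.38, -0.38, -0.39 and -0.37. Mbtps2 had 46.5, 52.4 and 47.5 CPM in the PL saline libraries, against 39.6, 38.0 and 37.3 CPM in the IL saline libraries. It passed narrowly as higher in PL (log2 fold change 0.35, SE 0.121, edgeR adjusted p = 0.0489), kept the call in 2 of the 12 fits that left out a library (those without PL Dex library 2 or 3), and stood at 0.10 after GC correction (edgeR adjusted p = 0.602). The GC slopes of the IL saline libraries were 0.0268, 0.0895 and 0.133, above those of PL saline, and the median log2 fold change between PL and IL after saline was -0.31 for transcripts over 55% GC and 0.23 for those under 45%.

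The other 3 genes did not pass after saline. Insig1 averaged 67.4 ± 1.83 CPM in PL saline and 58.9 ± 1.93 CPM in IL saline (SD, n = 3 each), groups that did not overlap, with a log2 fold change of 0.20 (95% interval -0.03 to 0.42, edgeR adjusted p = 0.217). Srebf2 averaged 201 ± 18.9 CPM in PL saline and 228 ± 20.1 CPM in IL saline (SD, n = 3 each), with a log2 fold change of -0.18 (95% interval -0.42 to 0.05). After GC correction the Srebf2 value was 0.12. Insig2 had a log2 fold change of 0.06 (95% interval -0.26 to 0.37).

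After Dex, Srebf1 alone of the 7 genes passed between PL and IL, where 7.34% of all genes tested did (3.54% as lower in PL). It had 38.5, 32.1 and 25.3 CPM in the PL Dex libraries, against 47.9, 37.7 and 50.5 CPM in the IL Dex libraries. The groups overlapped by 1 library on each side, and the log2 fold change was -0.51 (SE 0.148, edgeR adjusted p = 0.0405). The call was kept in 4 of the 12 fits that left out a library, those without PL Dex library 1, PL saline library 2 or 3 or IL Dex library 2. The value was -0.36 without PL Dex library 3. Mbtps1 had 100.3, 91.0 and 77.5 CPM in the PL Dex libraries, against 122, 119 and 100.9 CPM in the IL Dex libraries. These groups did not overlap, as in 10.8% of all genes tested in this direction, and the log2 fold change was -0.34 (SE 0.115, edgeR adjusted p = 0.0753), which passed with the batch number as a replicate block (-0.35, edgeR adjusted p = 0.0241). Insig1 stood at 0.24 (edgeR adjusted p = 0.232), Mbtps2 at 0.21, Insig2 at -0.16, Srebf2 at 0.14 and Scap at 0.0024.

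Read over the 4 groups, Srebf1 was highest in IL, with 45.3 ± 6.77 CPM in IL Dex and 45.1 ± 0.912 CPM in IL saline, then came PL Dex and last PL saline. The IL groups did not differ beyond their spread. Scap averaged 66.8, 66.6 and 66.8 CPM in PL Dex, IL Dex and IL saline, which did not differ beyond their spread, and PL saline stood below them. Srebf2 ran from PL Dex through IL Dex and IL saline to PL saline, and the ranges of neighbouring groups overlapped. Insig1 followed the order PL Dex, PL saline, IL Dex, IL saline, and of the neighbours only the IL groups had ranges that did not overlap. The ranges of Insig2 overlapped between all 4 groups. Mbtps1 split by region, with both PL groups below both IL groups, while Mbtps2 was higher in PL than in IL after saline and overlapped between the regions after Dex.

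**Figure D4:**
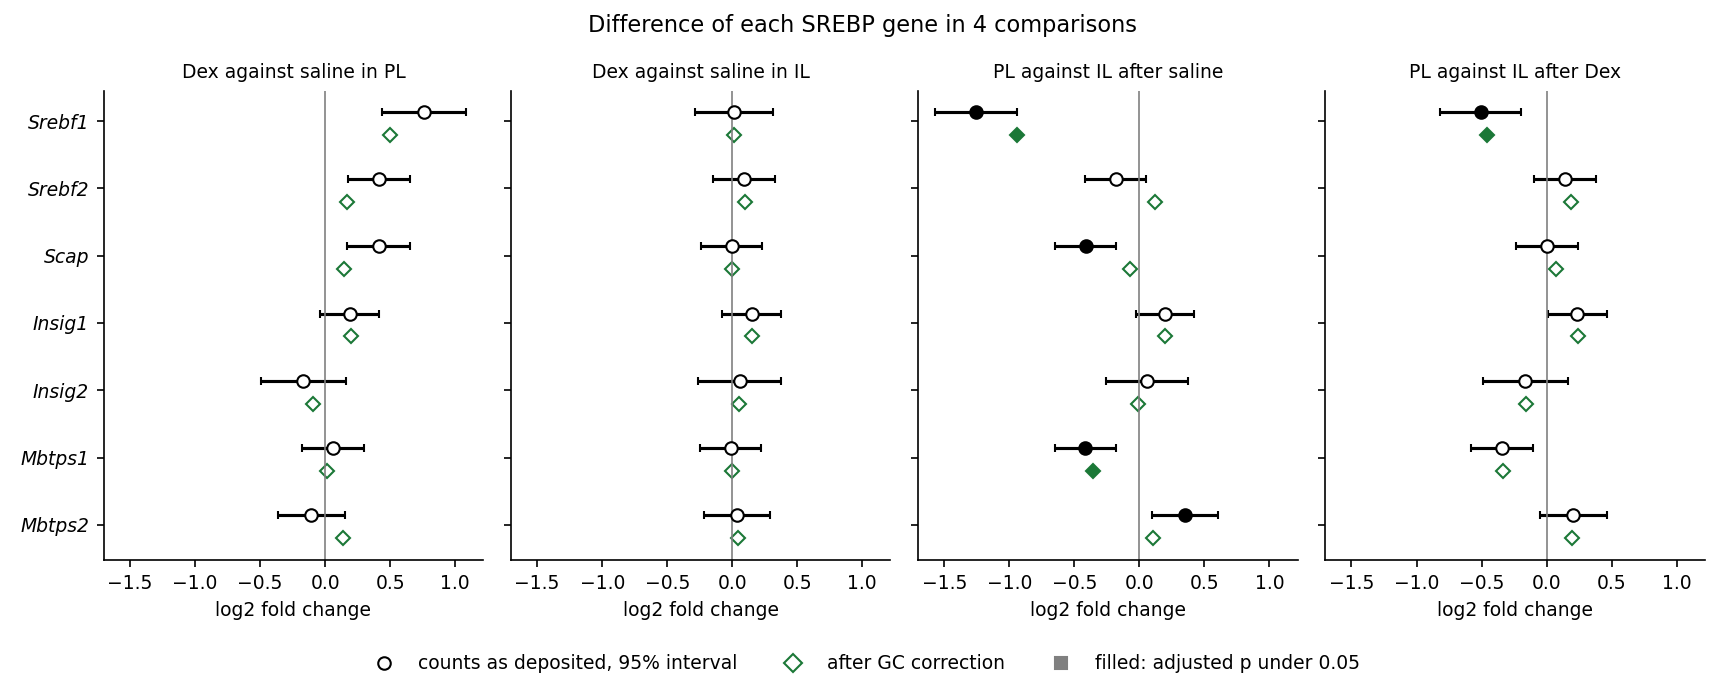
Log2 fold change of each SREBP gene (x axis) in 4 comparisons: circles are the counts as deposited with 95% intervals, diamonds the values after GC correction, and filled symbols have an edgeR adjusted p under 0.05. No symbol is filled for Dex against saline in PL or in IL. Between PL and IL after saline Srebf1 is filled at -1.26 and -0.94, and the diamonds of Scap and Mbtps2 lie near 0. Between PL and IL after Dex the circle of Srebf1 is filled at -0.51.

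Ratios between partners within a library do not depend on how libraries are scaled, and were set per unshared length. Exact permutation tests, two-sided, of 3 against 3 libraries cannot give a p under 0.1, and 12 such comparisons were made, so the smallest value after Benjamini-Hochberg adjustment was 0.2. The ratio of Insig1 to Insig2 was 2.51, 2.89 and 2.16 in the PL Dex libraries, against 2.00, 1.87 and 1.91 in the PL saline libraries. It was higher after Dex in every library (exact permutation p = 0.1), with means of 2.52 ± 0.361 in PL Dex and 1.93 ± 0.0630 in PL saline (SD, n = 3 each). In IL the means were 1.87 ± 0.0537 after Dex and 1.78 ± 0.279 after saline (SD, n = 3 each, exact permutation p = 0.4). The ratio of Srebf1 to Srebf2, genes of nearly the same GC content, was 0.178, 0.146 and 0.145 in the PL Dex libraries, against 0.123, 0.126 and 0.122 in the PL saline libraries. These did not overlap (exact permutation p = 0.1). In IL saline the same ratio averaged 0.262 ± 0.0281, so PL saline with 0.124 ± 0.00198 held less Srebf1 per Srebf2 (SD, n = 3 each, exact permutation p = 0.1). The ratio of Insig1 to Scap averaged 2.82 ± 0.298 in PL saline and 1.85 ± 0.204 in IL saline (SD, n = 3 each, exact permutation p = 0.1). These genes differ in GC content, and after GC correction the log2 fold change between PL and IL after saline was 0.20 for Insig1 and -0.07 for Scap. For Dex in PL the ratio of Insig1 to Scap averaged 2.42 ± 0.422 in PL Dex and 2.82 ± 0.298 in PL saline (SD, n = 3 each, exact permutation p = 0.2), and the libraries overlapped.

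Cell type markers were read beside these values. Of 12 astrocyte markers all were detected in every group, and their summed level was 5781 to 7715 CPM in PL Dex, 7073 to 7804 CPM in PL saline, 6449 to 6801 CPM in IL Dex and 6170 to 6610 CPM in IL saline. Most of the sum was Slc1a2, a glutamate transporter, with 5924 CPM in PL saline and 4676 CPM in IL saline, so the sum follows that gene. Counted gene by gene, 4 of the 12 had a positive log2 fold change between PL and IL after saline, with a median of -0.10. Slc1a2 passed as higher in PL, and Gfap, Fgfr3 and Slc4a4 passed as lower, the last 2 and Slc1a2 being named after their values were seen. Between Dex and saline in PL, 5 of the 12 had a positive log2 fold change, with a median of -0.05. Of the first listed, Aqp4, the astrocyte water channel, averaged 109 CPM in PL saline and 98.6 CPM in IL saline, and Gfap, the astrocyte filament protein, averaged 64.1 CPM in PL Dex (edgeR adjusted p against PL saline = 0.197), 43.4 CPM in PL saline and 86.9 CPM in IL saline (edgeR adjusted p = 0.000272). The 7 markers of cortical excitatory neurons were all detected and summed to 4508 to 4999 CPM in PL Dex, 3937 to 4830 CPM in PL saline, 3056 to 3955 CPM in IL Dex and 3073 to 3735 CPM in IL saline. The 8 markers of striatal neurons summed to 160 to 290.1 CPM in PL Dex, 135 to 520.4 CPM in PL saline, 791 to 1268 CPM in IL Dex and 803 to 1053 CPM in IL saline. All 8 were detected in every group. All 5 markers of oligodendrocyte precursors had negative log2 fold changes between PL and IL after saline, with a median of -0.54, and 3 passed as lower, beside 8.7% of all genes. Ependymal markers summed to at most 26.4 CPM in a library, with Ccdc153 and Tmem212 at 0 in PL saline. No marker of the 11 lists passed for Dex in PL or in IL. The part of cell composition in the region differences of the SREBP genes was not tested.

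The machinery around the 7 genes was read from lists of pathway genes. For Dex in PL, no gene of any list passed, and the counts of positive values can be set beside 9955 of 20015 genes in all, with a median of -0.0025. Of 15 genes for the retention and turnover of the complex, such as the ubiquitin ligase genes Rnf139 and Rnf145, 12 had a positive log2 fold change, with a median of 0.14. Of 13 COPII genes 9 were positive, with a median of 0.07. Of 25 upstream regulators 15 were positive, with a median of 0.16, and after GC correction 14 were positive with a median of 0.02. Rxra, the partner of the liver X receptors that switch on Srebf1, averaged 28.1 ± 0.459 CPM in PL Dex and 21.9 ± 1.85 CPM in PL saline (SD, n = 3 each, log2 fold change 0.36, edgeR adjusted p = 0.282), and its value was 0.13 after GC correction (edgeR adjusted p = 0.930).

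The target genes of both factors were listed as well. Of 18 SREBP1 targets 15 were positive for Dex in PL, with a median of 0.20, and after GC correction 14 were positive with a median of 0.09. Fasn, fatty acid synthase, averaged 359.7 ± 50.6 CPM in PL Dex and 279 ± 41.1 CPM in PL saline (SD, n = 3 each), and Acaca, acetyl-CoA carboxylase, 159.5 ± 6.48 CPM in PL Dex and 154 ± 12.7 CPM in PL saline (SD, n = 3 each). Their groups overlapped, with log2 fold changes of 0.37 and 0.05 (edgeR adjusted p = 0.240 and 0.847). Acacb, the mitochondrial form of that enzyme, averaged 7.85 ± 3.13 CPM in PL Dex and 4.17 ± 0.789 CPM in PL saline (SD, n = 3 each, log2 fold change 0.90, edgeR adjusted p = 0.233).

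Of 23 SREBP2 targets 14 were positive, with a median of 0.05, and after GC correction 10 were positive with a median of -0.04. By the counts as deposited, the values of this list ran from -0.29 to 0.58. Hmgcs1, a synthase early in cholesterol synthesis, lay near the low end at -0.27 (edgeR adjusted p = 0.322), and at -0.12 after GC correction. Without PL Dex library 3, 2 SREBP1 targets and 3 upstream regulators passed as higher, and of the SREBP2 targets 2 passed as higher and 1 as lower, beside 7.07% of all genes. At an unadjusted p under 0.05 in all libraries there were 7 of the 18 SREBP1 targets, 6 of the 23 SREBP2 targets and 8 of the 25 upstream regulators for Dex in PL, beside 2784 of 20015 genes. For Dex in IL, no gene of any list passed, and the medians of the lists ran from -0.0025 to 0.06.

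Between the regions after saline, 10 of 23 SREBP2 targets were higher in PL, beside 9.97% of all genes, and 1 was lower, with a median of 0.34 beside -0.02 for all genes. Hmgcs1 averaged 333 ± 30.2 CPM in PL saline and 174 ± 5.25 CPM in IL saline (SD, n = 3 each, log2 fold change 0.94, edgeR adjusted p = 4.3e-05). Stard4, a cholesterol transfer protein gene, and Sc5d, a late enzyme of the pathway, were higher in PL by 0.77 and 0.53 (edgeR adjusted p = 0.00217 and 0.00501). After GC correction 10 SREBP2 targets were higher and none was lower, with a median of 0.37. After Dex, 22 of 23 were positive and 6 passed as higher, among 3.8% of all genes, with a median of 0.33. Srebf2 itself did not pass in either region comparison.

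The SREBP1 targets were mixed between the regions after saline, with 2 higher and 4 lower in PL of 18 and a median of -0.16, beside 9.97% of all genes higher and 8.7% lower. Me1, the malic enzyme that supplies NADPH, and Elovl6, a fatty acid elongase, were higher in PL by 0.67 and 0.49 (edgeR adjusted p = 0.000367 and 0.00627). Gpam, an acyltransferase of glycerolipid synthesis, and Acacb were lower, at -0.35 and -0.97 (edgeR adjusted p = 0.0187 and 0.0241). After GC correction 2 were higher and 1 lower, with a median of 0.0018, beside 1599 higher and 1128 lower of all 20015 genes.

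Of 25 upstream regulators 5 were higher and 5 lower in PL after saline, beside the same 9.97% and 8.7% of all genes. Prkaa2, a catalytic subunit of the kinase AMPK, averaged 150.5 ± 16.9 CPM in PL saline and 73.3 ± 4.01 CPM in IL saline (SD, n = 3 each, log2 fold change 1.04, edgeR adjusted p = 1.2e-05). Fbxw7, the ubiquitin ligase component that targets nuclear SREBP, averaged 401 ± 16.9 CPM in PL saline and 247 ± 38.9 CPM in IL saline (SD, n = 3 each, log2 fold change 0.70, edgeR adjusted p = 0.000572). These 2 genes passed as higher in PL after Dex as well, at 0.63 and 0.42 (edgeR adjusted p = 0.00172 and 0.0353). After GC correction of the saline comparison 2 regulators were higher and none was lower. Of the other substrates of the site-1 and site-2 proteases, Atf6, a sensor of endoplasmic reticulum stress, was higher in PL after saline and after Dex, by 0.50 and 0.46 (edgeR adjusted p = 0.00164 and 0.00553). Its paralog Atf6b was lower in PL after saline, at -0.54 (edgeR adjusted p = 0.0185), and stood at -0.16 after GC correction (edgeR adjusted p = 0.437). Of the COPII genes, Sec23a and Sar1b were higher in PL after saline, by 0.51 and 0.45 (edgeR adjusted p = 0.00160 and 0.0233), and after GC correction 1 COPII gene passed. No gene for retention of the complex passed in either region comparison as reported. After GC correction Vcp, an ATPase of protein turnover named after its values were seen, passed as higher in PL, by 0.26 after saline and 0.30 after Dex (edgeR adjusted p = 0.0372 and 0.0194). With the replicate block 1 retention gene passed as lower after saline and 1 as higher after Dex.

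**Figure D5:**
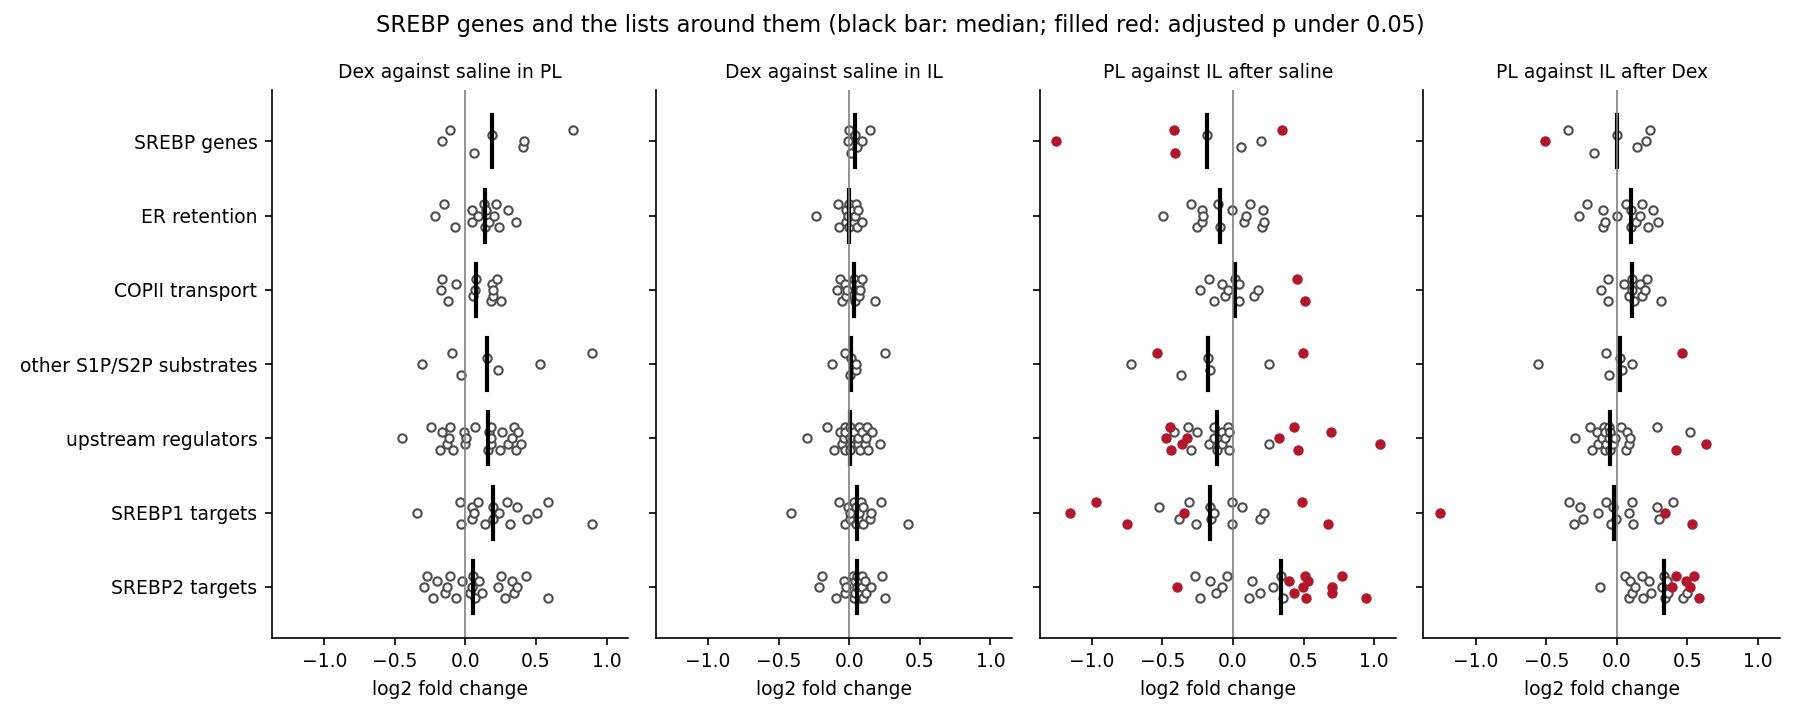
Log2 fold change (x axis) of every tested gene of the 7 SREBP genes and of 6 pathway lists in 4 comparisons, with black bars at the list medians and filled red points for an edgeR adjusted p under 0.05. No point is filled for Dex in PL or IL, and the SREBP2 targets lie mostly to the right between PL and IL, with medians of 0.34 after saline and 0.33 after Dex.

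The genes with the pattern most like a member were taken by the Pearson correlation of log2 CPM over the 12 libraries, among 11496 candidate genes, as a description without a test. These libraries share regions, batches and GC slopes. For Srebf1 they were Ptbp1, an RNA-binding splicing repressor (r = 0.979), Bcan, which encodes the matrix proteoglycan brevican (0.976), Dstyk, a kinase gene (0.973), Notch1, a receptor gene (0.964), and Pdxk, pyridoxal kinase (0.961). For Srebf2 they were Arf3, Eef2 and Acap3, with r of 0.946 to 0.954, and for Scap Trim46, Psmd3 and Spns1, with 0.954 to 0.967. For Insig1 they were Tmem144, Lrrc75b and Vti1a, with 0.925 to 0.9502, and for Insig2 Ndufs3, Ssu72 and Esrrg, with 0.899 to 0.952. For Mbtps1 they were Lca5, Mki67 and Sncaip, with 0.963 to 0.972, and for Mbtps2 Cand1, Pafah1b2 and Ugcg, with 0.958 to 0.965. No SREBP gene was among these genes most like another. Between SREBP genes, r over the 12 libraries ran from -0.840 (Mbtps1 with Mbtps2) to 0.862 (Srebf1 with Scap). It was 0.855 for Srebf2 with Scap.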

How the data were processed

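PolyA RNA-seq was measured in 12 libraries, 3 in each of 4 groups. The authors' deposited values are raw read counts, whole numbers without normalization. Per the file headers, these counts came from featureCounts 2.0.1 on exons in paired-end mode, without strand, against the GRCm38 annotation of Ensembl release 98, and a read over 2 genes was not counted. HISAT2, Trim Galore, SAMtools 1.8, bcl2fastq and the build mm39 are named per the submitters' processing notes. Coordinates here are those of the table, in GRCm38. The table has 12 further count columns that match no sample and were not used. Symbols were found for 55154 of 55421 gene identifiers.

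Counts were fitted with edgeR 4.0.16 in R 4.3.3 (limma 3.58.1): filterByExpr kept 20015 genes, TMM factors were 0.935 to 1.05, and a robust quasi-likelihood model had 1 mean per group over all 12 libraries and 8 residual degrees of freedom. Tests were two-sided, adjusted over the 20015 genes by Benjamini-Hochberg, with a threshold of 0.05. CPM are on TMM-scaled library sizes. The common biological coefficient of variation was 0.143. GC correction took a lowess trend (span 0.3) of log2 level, with a prior count of 2, on the GC content of the longest transcript out of each library as an offset, and 99.9% of the genes tested had a GC value. DESeq2 1.42.0, its size factors, no filter, the batch number as a block and leaving out each library were the other alternatives. No 2 libraries of a group agreed within sampling noise (chi-square per gene of 3.85 to 14.5).

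The labels call the shared number a batch, so it pairs libraries across groups. Deviations of same-numbered libraries from their group means correlated at 0.108, 0.00858 and 0.0736 for Dex and saline in PL and at 0.284, 0.294 and 0.337 for Dex and saline in IL. The correlations for PL and IL were 0.0652, 0.0265 and 0.191 after saline and 0.0377, -0.0933 and -0.0263 after Dex.

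The members and the gene lists were chosen with earlier results of these data known. Named are all members, the genes that overlap them, the first 3 genes of each pathway list and up to 4 genes past the threshold by smallest p, the first 2 of each marker list, and the 5 genes most like Srebf1 and 3 most like each other member among those with at least 5 CPM and no predicted name. Of the lists, Creb3l3, Creb3l4, Igf2 and Folr1 did not pass the filter. Some genes that this rule names are not reported here; they remain in the counts and medians of their lists.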

Additional observations from a re-analysis of the deposited data

How the results depend on the processing

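The number of genes called for Dex in PL was the least stable count. It was 4 as reported, 0 with DESeq2 size factors, 193 without the low-count filter and 123 with the DESeq2 test. It was 3 with the replicate block, 1 with GC correction, 2 with GC correction and the block, and 54 with GC correction and PL Dex library 3 left out, an alternative chosen after seeing the data. It ran from 0 to 1484 when single libraries were left out, with 1484 without PL Dex library 3. The 7 SREBP genes called there were 0 as reported, 2 without the filter, 1 with DESeq2, and 0 to 3 over the fits that left out a library. For Dex in IL, 3 genes passed without the filter. For the interaction, 4 genes passed without the filter, 0 to 144 when single libraries were left out, and 0 to 1 of the SREBP genes, with 144 genes and Srebf1 passing without PL Dex library 3.

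Between PL and IL after saline, the SREBP genes called were 4 as reported, 2 with GC correction, 2 with GC correction and the replicate block, 2 with GC correction and PL Dex library 3 left out, and 1 to 4 when single libraries were left out. All genes called ran from 1842 (without PL saline library 2) to 4649. It was 2367, 2128 and 2413 without IL saline libraries 1, 2 and 3. After Dex, the SREBP genes called were 1 as reported, 2 with the replicate block, 2 with GC correction and the block, 0 with GC correction and PL Dex library 3 left out, and 0 to 1 over the fits that left out a library. All genes called there were 1469 as reported, 2385 with GC correction and the block, and 783 (without IL Dex library 2) to 1728 when single libraries were left out.

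Over 35 comparisons of single SREBP genes and 19 alternatives, 43 log2 fold changes changed sign, and in all 43 neither value was past the threshold. With GC correction, with GC correction and the block, and with GC correction and PL Dex library 3 left out, Mbtps2 stood at 0.138, 0.136 and 0.0906 for Dex in PL and at 0.0967, 0.103 and 0.0476 in the interaction. Under the same 3 settings Srebf2 stood at 0.121, 0.121 and 0.124 and Insig2 at -0.00926, -0.00386 and -0.00233 between PL and IL after saline, and Scap at 0.00122, 0.00225 and 0.00272 for Dex in IL. Scap for Dex in IL was 0.00209 with DESeq2 size factors and 0.00278 with the DESeq2 test, and Srebf1 there was -0.00188 without the filter. Insig1 in the interaction was -0.0128 with GC correction and PL Dex library 3 left out. Leaving out single libraries gave ranges that crossed 0 for Insig2 (-0.327 to 0.0170) and Mbtps1 (-0.0277 to 0.161) for Dex in PL. For Dex in IL they did so for Srebf1 (-0.0797 to 0.126), Srebf2 (-0.00383 to 0.156), Scap (-0.0721 to 0.0408), Insig2 (-0.0417 to 0.120), Mbtps1 (-0.0711 to 0.0689) and Mbtps2 (-0.0351 to 0.114). They did so for Insig1 (-0.00563 to 0.140) and Mbtps1 (-0.0139 to 0.174) in the interaction, for Insig2 between regions after saline (-0.0347 to 0.124), and for Scap (-0.0372 to 0.0785) and Insig2 (-0.323 to 0.0210) between regions after Dex. The replicate block changed no other call of an SREBP gene than that of Mbtps1 between regions after Dex. Depth limits single values to the 122 to 4176 reads a library gave each gene. The cause of the changes was not tested.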
